A study of Mus musculus with 3 samples.

Results

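The 3 TGFβ ligand genes *Tgfb1*, *Tgfb2* and *Tgfb3* and the 3 TGFβ receptor genes *Tgfbr1*, *Tgfbr2* and *Tgfbr3* were followed through mouse scRNA-seq data. They were chosen by name, with earlier results of these data known, and all 6 had a row in each of the 3 libraries, out of 28953 genes listed in any of them. The libraries held 7821 cells of a D10 tendon culture, 2052 cells of the E14.5 mouse tail and 5954 cells of D6 paraxial mesoderm (PM) culture, with 1 library each. Both cultures came from mouse embryonic stem cells (mESCs) of blastocysts with the ScxGFP reporter, which had been kept on embryonic fibroblast feeders with serum and LIF before differentiation. The study used several ScxGFP+ lines, and the line behind each library was not given in the sources used here. Before D6, both received LDN-193189 (500 nM), which blocks BMP receptors, and from D2 also CHIR (5 μM), which activates WNT signaling. From D6 to D10 the tendon culture received 10 ng/mL TGFβ1, 100 nM SAG, an activator of hedgehog signaling, and 10 ng/mL FGF2. The D6 library was taken before any of the 3 was added. The tail was cut from mouse embryos and received no treatment, and the study's embryos came from ScxGFP mice on a C57BL6 background. How many cultures or embryos were pooled was not given in the sources used here. The question these libraries can address is how the genes for the ligands and their receptors stood in cells given the ligand TGFβ1, beside their counterparts in the embryo and the culture before treatment. The added TGFβ1 is a protein and gives no reads.

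TGFβ ligands are secreted in a latent complex with their propeptide, bound to LTBP proteins in the matrix, and are released by integrins and other activators. The active dimer binds TGFBR2, which recruits and phosphorylates TGFBR1, and TGFBR1 then phosphorylates SMAD2 and SMAD3. TGFBR3, also called betaglycan, is a co-receptor that presents ligand, above all TGFβ2, which binds TGFBR2 poorly by itself. TGFβ signaling is needed for tendon formation in the mouse embryo, where *Tgfb2* and *Tgfb3* are the ligand genes known for this role.

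RefSeq (GRCm38.p6) promoter sequences were at hand for 4 of the 6 genes, *Tgfb1*, *Tgfb2*, *Tgfbr1* and *Tgfbr2*. Shown are the 250 bases before the annotated start, for *Tgfb1* (chr7:25686752-25687001, plus strand) and *Tgfb2* (chr1:186705990-186706239, minus strand), whose levels differed in opposite directions between culture and tail in clusters 0 and 1, and for *Tgfbr2* (chr9:116175364-116175613, minus strand), whose level followed that of *Tgfb1* over the clusters. Capitals mark matches on either strand to TATAAA (the TATA box), CCAAT (the CCAAT box) and GGGCGG (the GC box).
Tgfb1: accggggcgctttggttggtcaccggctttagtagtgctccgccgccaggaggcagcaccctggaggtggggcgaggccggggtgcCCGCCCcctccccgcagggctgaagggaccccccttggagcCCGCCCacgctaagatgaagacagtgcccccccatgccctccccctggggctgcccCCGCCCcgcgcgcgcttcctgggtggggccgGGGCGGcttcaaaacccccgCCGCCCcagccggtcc
Tgfb2: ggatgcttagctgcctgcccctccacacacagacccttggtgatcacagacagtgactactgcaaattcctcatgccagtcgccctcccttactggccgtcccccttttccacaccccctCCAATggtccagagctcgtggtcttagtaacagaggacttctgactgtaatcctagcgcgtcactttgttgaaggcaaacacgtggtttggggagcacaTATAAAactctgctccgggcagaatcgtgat
Tgfbr2: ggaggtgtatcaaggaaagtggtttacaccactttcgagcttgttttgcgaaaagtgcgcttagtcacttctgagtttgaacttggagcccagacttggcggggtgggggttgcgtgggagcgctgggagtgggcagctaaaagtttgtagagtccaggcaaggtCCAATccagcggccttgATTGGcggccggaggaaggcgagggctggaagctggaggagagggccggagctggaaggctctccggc
The *Tgfb1* sequence held 5 GC box matches, a GC content of 75.2% and neither of the other motifs. *Tgfb2* held 1 TATA box match, which began 31 bases before the start, and 1 CCAAT match, at a GC content of 53.6%. *Tgfbr2* held 2 CCAAT matches and a GC content of 58.4%, and *Tgfbr1* held 2 CCAAT and 2 GC box matches before the first of its 2 listed starts. Of 32851 promoter entries of this length, 12.4% held TATAAA, 33.8% CCAAT and 32.7% GGGCGG. The letters CAGAC, which SMAD proteins can bind, occurred 2 times in *Tgfb2*, 1 time in *Tgfbr2* and 0 times in *Tgfb1*, and in 42.2% of all entries. No match to the AP-1 letters TGANTCA (6.75% of entries) or the CRE letters TGACGTCA (1.55%) was found in the 3 sequences shown. Each motif was searched by itself on both strands, and the matches in capitals did not overlap. A match describes letters and was not tested as a binding site.

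Levels are given in CPM: the UMIs of all cells in a cluster were added up within a library, and a gene's sum was divided by the sum of all genes and scaled to 1000000. A UMI marks 1 captured transcript. Values in parentheses span the exact 95% interval, which is a Poisson interval around levels, a conditional binomial interval around ratios and a Clopper-Pearson interval around shares. It reflects the number of UMIs or cells and no difference between cultures or embryos. Because each condition had 1 library, no test between conditions was possible and no p-value is given. The median was 5622 UMIs per cell in the culture, 13512 in the tail and 8171 in D6 PM, and 4, 10 and 3 cell barcodes were shared between culture and tail, culture and D6 PM, and tail and D6 PM. Clusters are those of the authors, who clustered D6 PM apart. For culture and tail, their results describe tail clusters to which culture cells were assigned by nearest neighbors. Their methods describe clustering after both libraries were integrated. Cluster 12 held 43 culture cells and no tail cell. The authors' deposited codes were matched to cluster numbers, while D6 clusters are named by code.

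Clusters were compared by number, since their leading genes did not all match a cell type. All 7 tendon markers, among them *Scx* and *Tnmd*, reached 10 CPM in cluster 0 of both libraries, with a summed level of 7669 CPM in the culture and 6414 CPM in the tail. Among the 10 leading genes of tail cluster 0 was *Myh11*, a smooth muscle myosin gene, and no tendon marker. Other leading genes of cluster 0 differed too, with *Lrrc17* and *Thbs4* in the culture and *C1qtnf3* and *Osr1* in the tail. *Aspn* and *Igf1* were among them in both. Whether culture and tail held the same cells in clusters 0, 1 and 2 was not tested. Cluster 1 held dividing cells, led by genes such as *Mki67* in the culture and *Top2a* in the tail. Cluster 2, called fibrocartilage in the study, had a summed level of 6 cartilage markers of 5610.0 CPM in the culture and 10527 CPM in the tail. D6 code 4 served as the paraxial mesoderm reference because it had the highest summed level of the PM markers at D6, 408 CPM over 6 markers, although its leading genes, such as *Zic1* and *Aldh1a2*, were not on the PM list.

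In cluster 0, *Tgfb1* was higher in the culture than in the tail, *Tgfb2* and *Tgfbr3* were lower, and *Tgfb3* and *Tgfbr1* differed by less than 1.5-fold. *Tgfb1* stood at 61.5 CPM (57.8 to 65.4) in cluster 0 culture cells and 9.28 CPM (7.50 to 11.4) in cluster 0 tail cells, a ratio of 6.62 (5.36 to 8.27). *Tgfb2* stood at 76.4 CPM (72.3 to 80.8) in the culture and 284 CPM (273 to 294) in the tail, a ratio of 0.269 (0.252 to 0.288). Thus *Tgfb1* was above and *Tgfb2* below its tail level in culture cluster 0. *Tgfb3* gave 51.7 CPM (48.3 to 55.3) and 49.2 CPM (45.0 to 53.7), a ratio of 1.05 (0.940 to 1.18), whose interval includes 1. By the rule of a 2-fold difference with at least 10 CPM in the higher group and at least 30 UMIs over both, 3 of the 6 genes differed, 1 higher and 2 lower in the culture. Over all 10251 genes that could be compared, 20.7% differed 2-fold, 7.77% higher and 12.9% lower. The median log2 ratio of all these genes was -0.17.

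**Figure D1:**
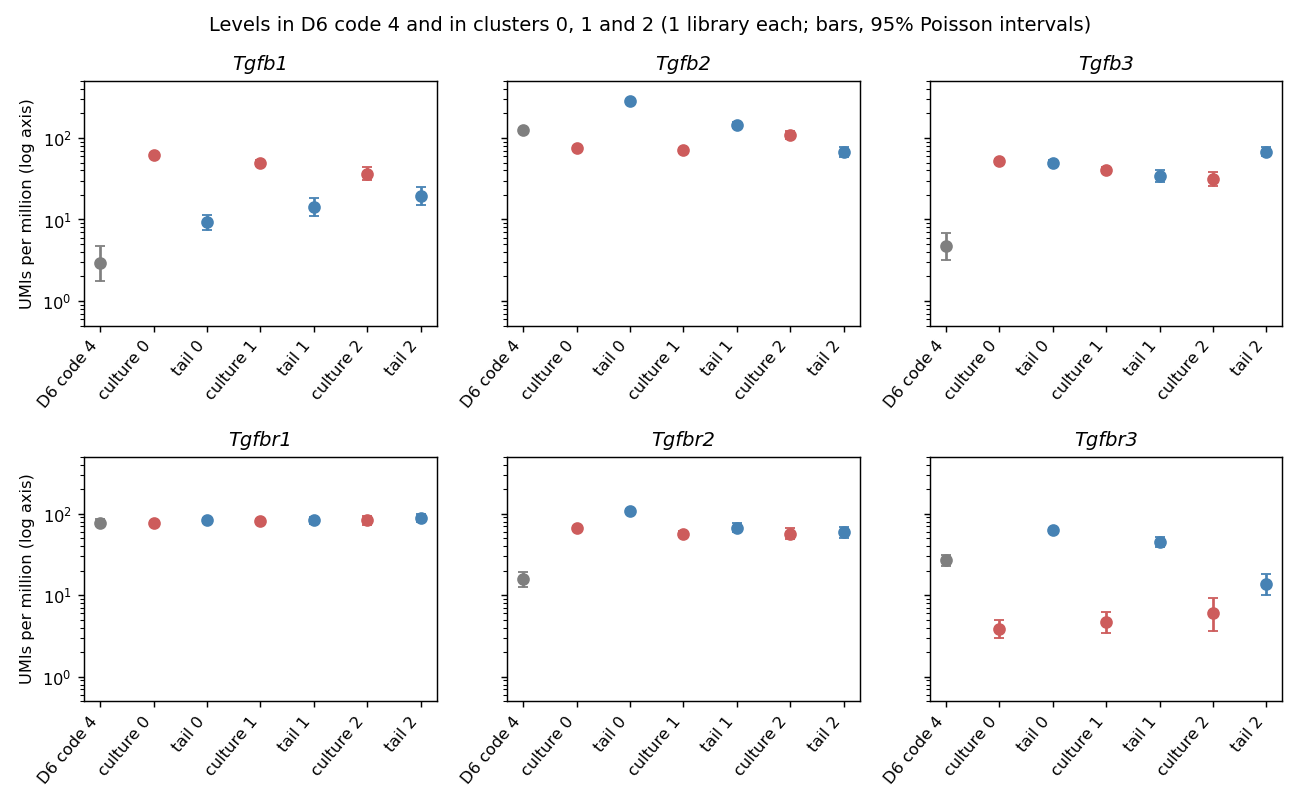
Levels of the 6 genes in CPM on a log axis in D6 code 4 (gray) and clusters 0, 1 and 2 of the D10 culture (red) and E14.5 tail (blue), with 95% Poisson intervals from 1 library each. *Tgfbr1* stays between 76.2 and 89.5 CPM in all 7 groups, while *Tgfb1* and *Tgfbr3* separate culture from tail in opposite directions.

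The receptor genes differed from each other in the same comparison. *Tgfbr1*, the type I receptor gene, stood at 76.2 CPM (72.0 to 80.5) in the culture and 82.9 CPM (77.4 to 88.7) in the tail, a ratio of 0.919 (0.842 to 1.0). *Tgfbr2*, the type II receptor gene that binds ligand first, stood at 66.9 CPM (63.0 to 71.0) and 107 CPM (101 to 114), a ratio of 0.626 (0.575 to 0.681). The co-receptor gene *Tgfbr3* showed the largest difference of the 6, with 64 UMIs or 3.86 CPM (2.97 to 4.93) in the culture and 633 UMIs or 62.5 CPM (57.7 to 67.6) in the tail. The ratio of *Tgfbr3* was 0.0617 (0.0469 to 0.0799). Of the summed receptor UMIs in cluster 0, *Tgfbr3* made up 2.63% (2.03 to 3.34) in the culture and 24.8% (23.1 to 26.5) in the tail. Scaling by TMM, which aligns the bulk of genes, raised every ratio of this comparison by 0.34 on the log2 scale and turned *Tgfbr1* to 1.16, with *Tgfb1* at 8.36 and *Tgfb2* at 0.340.

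Leukocytes, megakaryocytes and endothelium are known to express *Tgfb1*, and their markers were low in cluster 0. The 6 leukocyte markers summed to 2.41 CPM in the culture and 2.57 CPM in the tail, the 4 megakaryocyte markers to 2.47 and 5.53 CPM, and the 6 endothelium markers to 18.0 and 18.9 CPM. None of these 16 markers reached 10 CPM in either group. Markers of other cells differed more, since 6 erythroid markers summed to 4.94 CPM in culture cluster 0 and 1469 CPM in tail cluster 0, and 7 pluripotent markers to 40.7 and 4.54 CPM. None of the 6 genes exceeded 2.82 CPM in erythroid tail cluster 11, while tail cluster 5, which also held globin genes, had *Tgfb2* at 40.4 CPM (29.0 to 54.8). The part of leukocytes, megakaryocytes, endothelium, erythroid cells or pluripotent-like cells in these ratios was not tested. Among cells without any UMI of the leukocyte, megakaryocyte and endothelium markers, a set chosen after the data were seen, the culture over tail ratio was 7.29 for *Tgfb1*, 0.272 for *Tgfb2* and 0.0565 for *Tgfbr3*.

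The dividing cells of cluster 1 showed the same directions for these 3 genes. *Tgfb1* stood at 49.6 CPM in the culture and 14.3 CPM in the tail, a ratio of 3.46 (2.66 to 4.58). *Tgfb2* stood at 71.1 and 143 CPM, a ratio of 0.497 (0.446 to 0.554), and *Tgfbr3* at 4.67 and 44.6 CPM, a ratio of 0.105 (0.0752 to 0.144). The other 3 genes stayed within 2-fold, with ratios of 1.17 for *Tgfb3*, 0.979 for *Tgfbr1* and 0.836 for *Tgfbr2*. Thus 3 of 6 genes differed 2-fold in cluster 1, where 18.1% of all genes compared did. With TMM scaling, *Tgfb2* of this cluster stayed within 2-fold, at 0.620. The 6 erythroid markers summed to 0.654 CPM in culture cluster 1 and 4465 CPM in tail cluster 1, and their part was not tested.

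Cluster 2 had another ligand pattern. *Tgfb2* was higher in the culture, at 109 CPM (98.5 to 121), than in the tail, at 67.4 CPM (58.9 to 76.9), a ratio of 1.62 (1.37 to 1.93). *Tgfb3* stood at 31.3 CPM (25.6 to 37.9) in the culture and 68.0 CPM (59.4 to 77.5) in the tail, a ratio of 0.460 (0.361 to 0.583). *Tgfb1* was again higher in the culture, at 36.4 and 19.4 CPM, but its ratio of 1.88 (1.38 to 2.59) did not reach 2. Among the receptors, *Tgfbr1* and *Tgfbr2* gave ratios of 0.927 (0.784 to 1.10) and 0.969 (0.789 to 1.19). *Tgfbr3* had 20 UMIs in the culture and 45 in the tail, a ratio of 0.442 (0.247 to 0.764). Thus 2 of 6 genes, *Tgfb3* and *Tgfbr3*, differed 2-fold, beside 19.4% of all genes compared. TMM scaling brought both within 2-fold, to 0.540 and 0.519, and *Tgfb1* past it, to 2.21.

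Within each library, the ligand genes differed between clusters 0 and 2. *Tgfb2* in cluster 2 over cluster 0 of the tail was 0.238 (0.206 to 0.272), and *Tgfb1* and *Tgfb3* were 2.08 (1.49 to 2.89) and 1.38 (1.18 to 1.62). In the culture, the ratios of cluster 2 over cluster 0 were 1.43 (1.27 to 1.61) for *Tgfb2*, 0.592 (0.486 to 0.715) for *Tgfb1* and 0.605 (0.489 to 0.742) for *Tgfb3*. All 3 ligand genes therefore differed between clusters 0 and 2 in opposite directions in culture and tail, also with TMM scaling, under which *Tgfb1* of the tail was at 1.93. This difference between libraries was not tested. Among the receptors of the tail, *Tgfbr2* was 0.551 (0.471 to 0.643) and *Tgfbr3* 0.218 (0.157 to 0.295) of its cluster 0 level in cluster 2. In the culture these ratios were 0.854 (0.728 to 0.997) for *Tgfbr2* and 1.56 (0.894 to 2.61) for *Tgfbr3*. By the 2-fold rule, 3 of 6 genes differed between clusters 2 and 0 of the tail, beside 10.5% of all genes, and 0 of the 5 that could be compared differed in the culture, beside 6.48%. In cluster 1 over cluster 0, 0 of 5 genes in the culture (4.49% of all genes) and 0 of 6 in the tail (8.17%) differed 2-fold, and *Tgfb2* in the tail came closest at 0.504 (0.461 to 0.550), and passed 2-fold with TMM scaling at 0.493. These clusters were made from the same cells and genes, so these ratios are a description.

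From D6 code 4 to culture cluster 0 at D10, *Tgfb1*, *Tgfb3* and *Tgfbr2* were higher, *Tgfbr3* was lower, and *Tgfbr1* was level. *Tgfb1* had 18 UMIs or 2.96 CPM (1.76 to 4.68) in D6 code 4, a level not above the 3.53 CPM (2.56 to 4.76) of pluripotent-like D6 code 2. The ratio of cluster 0 culture cells to it was 20.8 (13.1 to 35.2). *Tgfb3* stood at 4.77 CPM (3.20 to 6.85) at D6, a ratio of 10.8 (7.49 to 16.3), and *Tgfbr2* at 15.6 CPM (12.6 to 19.1), a ratio of 4.28 (3.47 to 5.34). *Tgfbr3* went from 26.8 CPM (22.9 to 31.3) at D6 to 3.86 CPM, a ratio of 0.144 (0.106 to 0.193). *Tgfb2* stood at 124 CPM (116 to 134) at D6, and cluster 0 of D10 had 0.615 of it (0.561 to 0.673). *Tgfbr1* stood at 77.7 CPM (70.8 to 85.0), a ratio of 0.981 (0.882 to 1.09), or 1.18 with TMM scaling. Thus 4 of 6 genes differed 2-fold, 3 higher and 1 lower, beside 23.1% of all genes compared (11.6% higher and 11.5% lower). The same 4 genes differed in the same directions in culture clusters 1 and 2 over D6 code 4, beside 26.9% and 23.3% of all genes. These ratios depended on the D6 cells taken as reference. Over D6 code 5, culture cluster 0 had *Tgfb1* at 0.415 (0.379 to 0.455), *Tgfbr2* at 0.644, *Tgfb3* at 3.55, *Tgfbr1* at 2.84 and *Tgfbr3* at 0.0594. Over D6 code 6, *Tgfb1* gave 1.29 and *Tgfbr2* 1.27. Over D6 codes 1, 2 and 3, *Tgfb1* gave 4.94, 17.4 and 8.09. Between whole libraries, *Tgfb1* was at 1.49 (1.39 to 1.60).

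Tail cluster 0 over D6 code 4 gave 10.3 (7.09 to 15.6) for *Tgfb3* and 6.84 (5.55 to 8.53) for *Tgfbr2*. It gave 2.28 (2.11 to 2.47) for *Tgfb2* and 2.33 (1.96 to 2.79) for *Tgfbr3*, genes that were below the D6 level in the culture. *Tgfb1* was 3.14 (1.88 to 5.52), but did not reach 10 CPM in either group and was not counted. Of the other 5 genes, 4 were 2-fold higher in the tail, where 15.6% of all genes compared were higher and 26.1% differed in either direction. Culture and tail share the D6 cells in these ratios. TGFβ1, SAG, FGF2 and the 4 days between D6 and D10 cannot be told apart in this design, nor can the culture and the embryo be told apart from the library.

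Over all cells, the D6 library had 152 CPM of *Tgfb2*, and D6 code 1, a cluster of 2539 cells with the keratin genes *Krt8* and *Krt18* among its leading genes, gave 60.7% (59.6 to 61.8) of its UMIs. *Tgfb2* was highest there at 263 CPM (255 to 270.4), followed by D6 code 3 at 214 CPM (204 to 225). D6 code 5, led by fibroblast genes such as *Col1a1* and *Dcn*, gave 66.7% (64.1 to 69.3) of the *Tgfb1* UMIs and 69.1% (66.0 to 72.1) of the *Tgfbr2* UMIs from 11.1% of the D6 cells. Its levels were 148 CPM (138 to 158) for *Tgfb1*, 104 CPM (95.9 to 112) for *Tgfbr2* and 64.9 CPM (58.6 to 71.8) for *Tgfbr3*. Of these cells, 640 of 662 had no leukocyte marker UMI, and they held 140.4 CPM (131 to 151) of *Tgfb1*. Whether they descend from differentiated mESCs or from feeder cells cannot be told apart here. In pluripotent-like D6 code 2, *Tgfb1*, *Tgfb3* and *Tgfbr2* stood at 3.53, 0.493 and 1.23 CPM.

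The pattern of *Tgfb1* over clusters was led by the endothelium-like cluster 10. There it reached 318 CPM (260.4 to 385) in the culture and 152 CPM (133 to 174) in the tail, from 58 and 71 cells. Over 11 culture clusters of at least 40 cells, *Tgfb1* ranged from 1.96 CPM in pluripotent-like cluster 4 to this value, with a median of 39.0 CPM. Clusters 10 and 3 of the culture had overlapping intervals, both lay above cluster 0, and clusters 1, 6, 7 and 2 followed without a gap between neighbors. In the 12 tail clusters the median was 7.97 CPM, and *Tgfb1* was at 0 UMIs in cluster 9, led by nerve genes, where a count of 0 allows up to 1.78 CPM by a floor of 3 counts. Tail cluster 3 had 97.9 CPM (85.8 to 111), and its leading genes included *Cpa3*, a mast cell protease gene, and *Tyrobp*, an adaptor gene of leukocytes. A split by leukocyte markers, made after the data were seen, gave 244 CPM (211 to 280.4) of *Tgfb1* in its 34 cells with at least 3 such UMIs and 25.7 CPM (18.4 to 34.8) in its 121 cells with none. Culture cluster 3 held 53 cells, and its 48 cells without a leukocyte UMI had 229 CPM (184 to 282). Its 5 cells with at least 3 such UMIs had 219.8 CPM (114 to 384). Of the 238 *Tgfb1* UMIs of tail cluster 3, 197 lay in its cells with at least 3 leukocyte UMIs. In culture cluster 3, 88 of 100 lay in its cells without one. The identity of the cells without a leukocyte UMI was not tested.

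**Figure D2:**
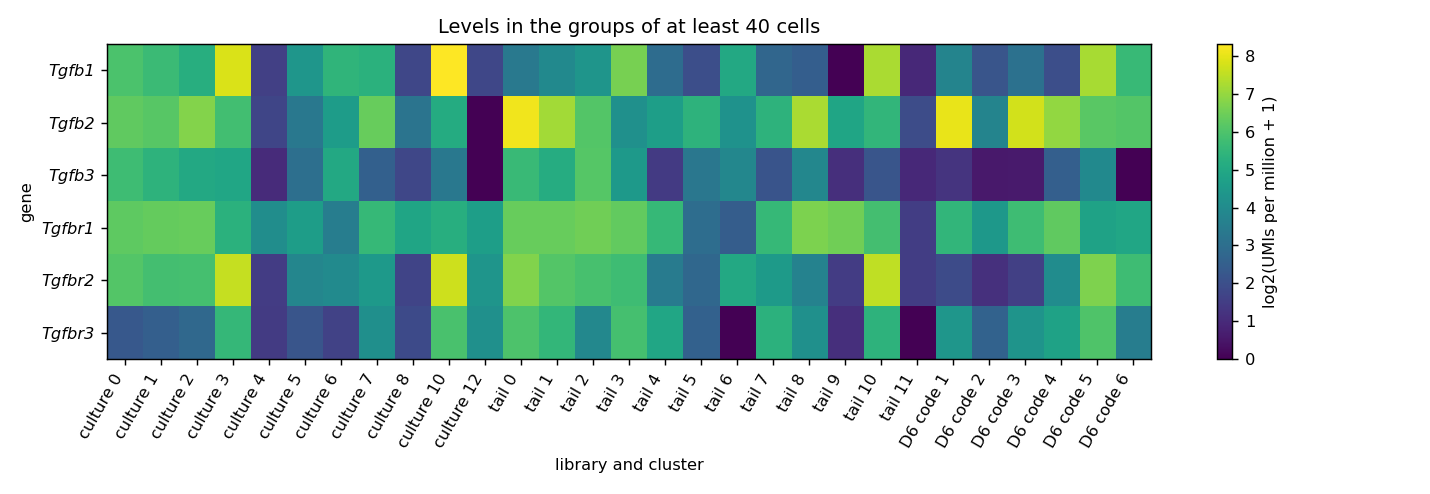
Levels of the 6 genes as log2(CPM + 1) in the 29 groups of at least 40 cells, with genes as rows and groups as columns. *Tgfb1* and *Tgfbr2* are both bright in clusters 3 and 10 of the culture, in tail cluster 10 and in D6 code 5, and *Tgfb3* is brightest in clusters 0 and 1 of the culture and 2 and 0 of the tail.

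*Tgfb2* was led by other clusters. In the tail it was highest in cluster 0 at 284 CPM, followed by muscle cluster 8 at 151 CPM and cluster 1 at 143 CPM, whose intervals overlap. Its median over the tail clusters was 40.5 CPM and its lowest value 2.82 CPM, in erythroid cluster 11. In the culture the highest value, 109 CPM in cluster 2, overlapped that of cluster 7 at 81.9 CPM, where *Krt8* and *Afp* were among the leading genes. Neither *Tgfb2* nor *Tgfb3* had a UMI in the 43 cells of culture cluster 12, where the same floor allows up to 7.29 CPM. *Tgfb3* was led by cluster 0 in the culture, at 51.7 CPM with a median of 9.10 CPM over the clusters. In the tail it was led by cluster 2, at 68.0 CPM with a median of 11.1 CPM, and at D6 its highest value was 14.6 CPM (11.7 to 18.0), in code 5.

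*Tgfbr1* stood near a common level in many clusters. In the tail it lay between 79.4 and 102 CPM in clusters 0, 1, 2, 3, 8 and 9, with overlapping intervals between neighbors, and it fell to 1.88 CPM in erythroid cluster 11. In the culture its lowest value was 10.6 CPM, in the shallow cluster 6, and pluripotent-like cluster 4 had 15.9 CPM. *Tgfbr2* was highest in endothelium-like cluster 10, at 203 CPM (157 to 258) in the culture and 184 CPM (162 to 207) in the tail. In the culture this interval overlapped that of cluster 3, at 191 CPM (153 to 237). The lowest values of *Tgfbr2* were 1.79 CPM in culture cluster 4, 1.78 CPM in tail cluster 9 and 1.23 CPM in D6 code 2. Tail cluster 9 therefore combined *Tgfbr1* at 89.5 CPM with almost no *Tgfbr2*. *Tgfbr3* was low in culture clusters 0, 1 and 2, but reached 60.6 CPM (37.0 to 93.7) in cluster 10 and 45.6 CPM (27.8 to 70.4) in cluster 3 of the same library. Its level in tail cluster 10 was 40.9 CPM (31.1 to 52.9), a ratio of 1.48 (0.844 to 2.50) whose interval includes 1.

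Leading genes of culture and tail also differed in many clusters other than 0, 1 and 2. Of these other clusters, ratios were read only for cluster 10, whose leading genes included *Cldn5*, *Cdh5* and *Kdr* in both libraries. Its other leading genes differed, with *Lyve1*, *Ccl21a* and *Mmrn1*, which mark lymphatic endothelium, in the culture and *Plvap*, *Emcn* and *Flt1* in the tail, and whether the same endothelial cells were compared was not tested. There *Tgfb1* was 2.09-fold higher in the culture (1.64 to 2.65) and *Tgfbr2* gave 1.11 (0.833 to 1.45). That is 1 of 5 genes compared, beside 11.2% of all genes higher and 25.8% in either direction, and with TMM scaling *Tgfb1* stayed within 2-fold, at 1.73, and *Tgfbr2* turned to 0.920.

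Each ligand gene's share of the 3 ligand genes' UMIs shows the mix that a cluster transcribed. Capture may differ between genes, so shares were compared between groups and not between genes. In D6 code 4, *Tgfb2* made up 94.1% (92.3 to 95.7) of the ligand UMIs, and in tail cluster 0 82.9% (81.6 to 84.2). In culture cluster 0 the mix was 40.3% (38.6 to 42.0) *Tgfb2*, 32.4% (30.8 to 34.1) *Tgfb1* and 27.3% (25.7 to 28.9) *Tgfb3*. Within the tail, *Tgfb1* made up 2.71% (2.20 to 3.31) of cluster 0, 7.47% (5.77 to 9.47) of cluster 1, and of cluster 2 it made up 12.5% (9.76 to 15.7). Endothelium-like cluster 10 had a *Tgfb1* share of 88.2% among 119 ligand UMIs of culture cells and of 76.3% among 283 of tail cells. The 3 ligand genes together summed to 189.6 CPM in culture cluster 0 and 342 CPM in tail cluster 0.

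**Figure D3:**
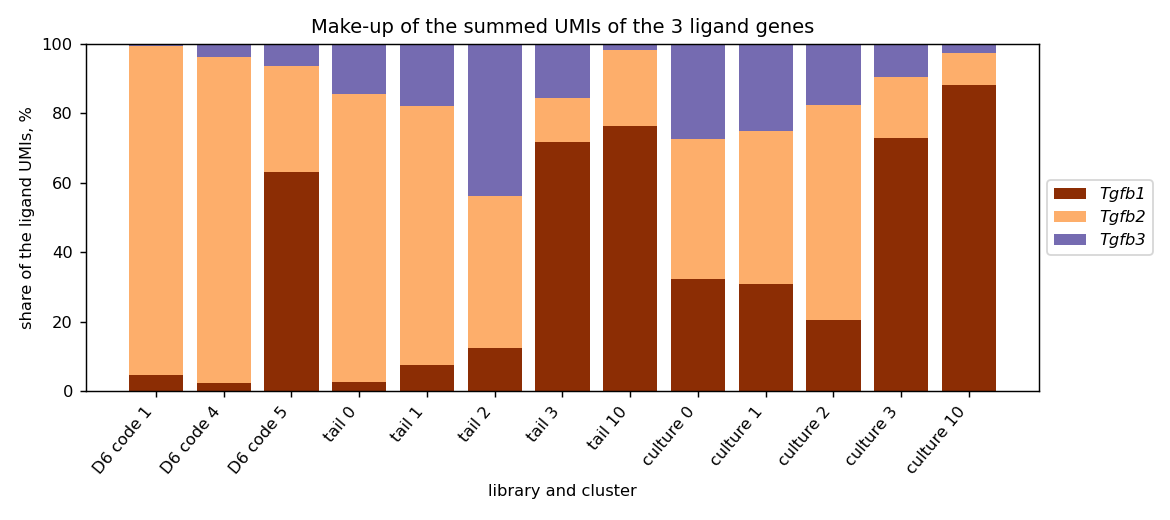
Share of each ligand gene, in percent, of the summed UMIs of the 3 ligand genes in 13 groups. *Tgfb2* takes 94.1% in D6 code 4 and 82.9% in tail cluster 0, whereas the 3 genes each take at least 27.3% in culture cluster 0.

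Shares of cells with a UMI showed the same differences at equal depth. With each cell thinned to 3000 UMIs, 13.7% (12.4 to 15.1) of 2595 cluster 0 culture cells and 2.51% (1.47 to 3.98) of 678 cluster 0 tail cells had a *Tgfb1* UMI, and 369 and 7 shallower cells were left out. Without thinning, these shares were 23.6% and 10.5%. For *Tgfb2* the thinned shares were 19.5% (18.0 to 21.0) and 45.1% (41.3 to 49.0), and for *Tgfbr3* 1.27% (0.877 to 1.78) and 16.7% (13.9 to 19.7). As background, 0 of 125 cells of erythroid tail cluster 11 had a UMI of a ligand gene, which allows up to 2.40% by the floor of 3 counts, and their median depth was 8391 UMIs. In tail cluster 5, which also held globin genes, 2.94% (0.358 to 10.2) of 68 cells had a *Tgfb2* UMI. Pluripotent-like culture cells, with a median depth of 10369 UMIs, had shares of 0.925% for *Tgfb1* and 0.833% (0.381 to 1.57) for *Tgfbr3*. By these thinned shares, *Tgfbr3* of cluster 0 culture cells was not separable from background, although over all UMIs its level of 3.86 CPM (2.97 to 4.93) lay above the 1.71 CPM (1.04 to 2.63) of pluripotent-like cluster 4. The *Tgfb1* share of D6 code 4, at 0.330% (0.0400 to 1.19), was not above that of the pluripotent-like cells.

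**Figure D4:**
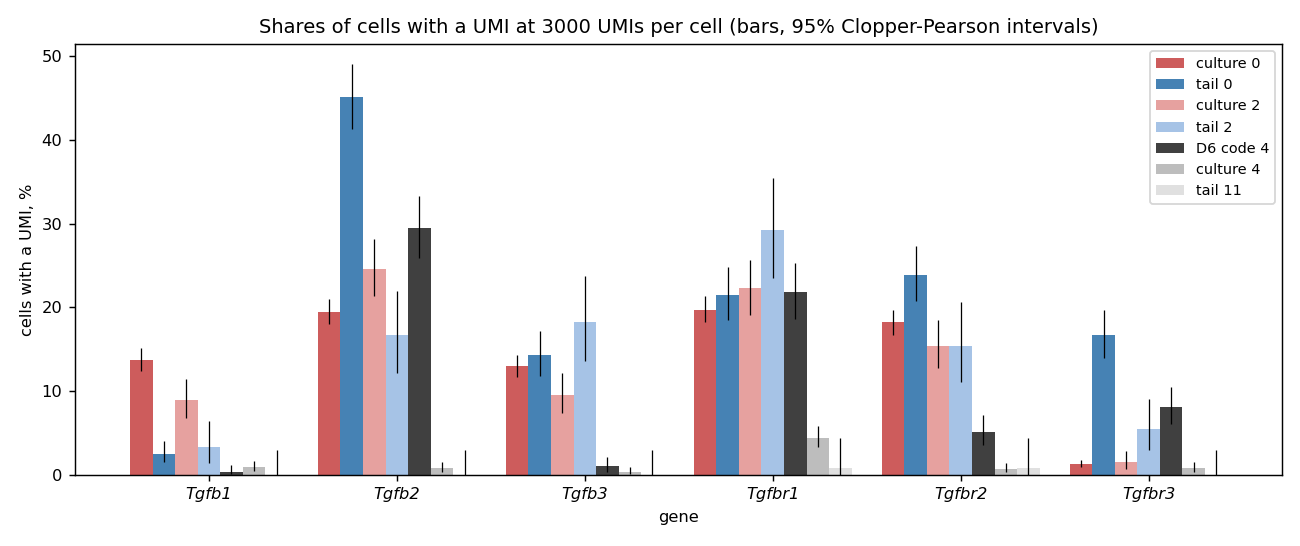
Share of cells with at least 1 UMI of each gene, in percent, with each cell thinned to 3000 UMIs and 95% Clopper-Pearson intervals. Culture cluster 4 and tail cluster 11 stand for background, and *Tgfbr3* in culture cluster 0, at 1.27%, lies beside them while tail cluster 0 is at 16.7%.

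Single cells of tail cluster 0 held up to 34 *Tgfb2* UMIs, and 322 of 685 cells had 3 or more. In culture cluster 0 the highest number was 7, and 92 of 2964 cells had 3 or more, at a lower depth. For *Tgfb1*, 61 of the 2964 culture cells and 5 of the 685 tail cells had 3 or more UMIs. The highest number was 9 in a culture cell and 7 in a tail cell, taken over more cells in the culture. UMIs of both *Tgfbr1* and *Tgfbr2*, whose proteins form the signaling complex, were found in 3.93% (3.22 to 4.75) of thinned cluster 0 culture cells, where independent detection gives 3.58%. In cluster 0 tail cells the share was 5.16% (3.62 to 7.11), beside 5.15%.

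Genes that store and release latent TGFβ were mostly higher in culture cluster 0 than in D6 code 4, but not than in D6 code 5, over which their median log2 ratio was -0.05, beside 0.16 over all genes. Of 14 such genes, 10 could be compared between culture cluster 0 and D6 code 4, and 8 were 2-fold higher and 1 lower, beside 11.6% and 11.5% of all genes. Their median log2 ratio was 1.88, beside -0.15 over all genes, and with TMM scaling 9 were higher. The latent TGFβ binding protein genes *Ltbp1*, *Ltbp3* and *Ltbp4* were 7.04-fold (5.60 to 8.97), 10.1-fold (6.86 to 15.6) and 4.71-fold (3.32 to 6.89) higher. *Itgav* and *Itgb8*, which encode the chains of an integrin that activates latent TGFβ, were 4.09-fold (3.40 to 4.94) and 52.8-fold (17.9 to 257) higher, the latter from 0.494 CPM at D6. *Itgb5*, another partner of *Itgav*, gave 2.41 (2.17 to 2.68), *Itgb1* lay at the 2-fold bound, and *Furin*, which cleaves the propeptide, gave 3.31 (2.60 to 4.28). *Lrrc32*, whose product GARP holds latent TGFβ on the cell surface, was lower at 0.344 (0.248 to 0.476). Between culture and tail in cluster 0, 1 of 9 of these genes differed 2-fold, *Ltbp1* at 0.498 (0.464 to 0.533), beside 20.7% of all genes, with a median log2 ratio of -0.06. With TMM scaling *Ltbp1* stayed within 2-fold at 0.628, and *Itgav* was higher at 2.44.

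Of 7 other receptor genes of the family compared between culture and tail, 3 differed 2-fold. *Eng* and *Acvrl1*, which encode the co-receptor endoglin and its type I partner ALK1, were 2.47-fold (2.07 to 2.96) and 3.03-fold (2.34 to 3.95) higher in culture cluster 0. *Bambi*, a pseudoreceptor that dampens signaling, was lower at 0.238 (0.203 to 0.278). These 2 higher and 1 lower of 7 genes stand beside 7.77% higher and 12.9% lower of all genes, and the other 4 stayed within 2-fold. Over D6 code 4, *Eng*, *Acvrl1* and *Acvr1* were 33.2-fold (16.0 to 83.0), 8.72-fold (5.22 to 15.7) and 6.40-fold (4.81 to 8.70) higher and *Acvr2b*, an activin receptor gene, was lower at 0.394 (0.339 to 0.458), that is 3 higher and 1 lower of 7 beside 11.6% and 11.5% of all genes, or 4 higher with TMM scaling.

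Among 11 genes for signal transducers and their inhibitors, 1 was higher and 2 were lower in culture cluster 0 than in tail cluster 0, where 20.7% of all genes differed. *Skil*, whose product SnoN represses SMAD targets and is itself induced by TGFβ, was 3.40-fold (3.12 to 3.72) higher. *Smad3*, a transducer, was lower at 0.424 (0.354 to 0.507), as was the inhibitory *Smad6* at 0.257 (0.188 to 0.349). *Smad2*, *Smad4* and *Smad7* stayed within 2-fold at 0.673, 0.644 and 0.806. Over D6 code 4, *Ski* and *Skil* were 2.38-fold and 2.28-fold higher and *Smad3* was lower at 0.353 (0.291 to 0.428), that is 2 higher and 1 lower of 10, where 23.1% of all genes differed. With TMM scaling 4 were higher, with *Smurf1* at 2.32 and *Smurf2* at 2.08, genes of ubiquitin ligases that act on the receptors and SMAD proteins. Of the activin and nodal ligands and their antagonists, *Inhbb* and *Gdf11* were lower in the culture than in the tail, 2 of 4 compared beside 12.9% of all genes. *Inhbb* had 1 UMI in culture cluster 0 and 17.5 CPM in the tail, a ratio of 0.00345 (8.68e-05 to 0.0195), and *Gdf11* gave 0.398 (0.334 to 0.473). With TMM scaling, *Smad3* and *Gdf11* came within 2-fold of the tail, at 0.535 and 0.502, and *Fst*, the gene of the activin antagonist follistatin, passed it at 2.14. *Inhba*, an activin subunit gene, was 28.8-fold (16.4 to 55.9) higher in culture cluster 0 than in D6 code 4, 1 of 3 compared beside 11.6% of all genes. The median log2 ratio of the activin and nodal list was 0.28 over D6 code 4 but -1.78 over D6 code 5, beside -0.15 and 0.16 over all genes. Over D6 codes 1, 2, 3 and 6 it was 1.12, -0.40, 1.65 and 3.65.

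Genes known to respond to TGFβ were mostly higher in clusters 0, 1 and 2 of the treated culture than of the tail. Of 6 such genes compared, 4 were 2-fold higher in culture cluster 0 than in tail cluster 0 and 0 were lower, beside 7.77% and 12.9% of all genes. Their median log2 ratio was 1.85, beside -0.17 over all genes. *Pmepa1*, a feedback inhibitor of the pathway, stood at 839 and 192 CPM, a ratio of 4.38 (4.18 to 4.60). *Ctgf*, a matricellular gene, was 5.39-fold (4.76 to 6.11) higher. *Cdkn2b*, a cell cycle inhibitor gene, stood at 115 and 0.395 CPM, a ratio of 289.9 (113 to 1065), and *Tagln*, a contractile gene, gave 2.98 (2.83 to 3.14). *Tgfbi* and *Acta2* stayed within 2-fold at 1.47 and 1.45. In cluster 1, 5 of 6 were higher in the culture, beside 18.1% of all genes that differed in either direction, and in cluster 2, 3 of 5, beside 19.4%, among them *Pmepa1* at 5.82 (5.24 to 6.47). In cluster 10, 1 of 3 was higher and 1 lower, beside 25.8%. Over D6 code 4, 5 of 6 were higher in culture cluster 0, beside 11.6% of all genes, with a median log2 ratio of 4.68 beside -0.15. These 2 counts for cluster 0 were the same with TMM scaling. All the gene lists were chosen with earlier results of these data known, so their counts are a description.

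**Figure D5:**
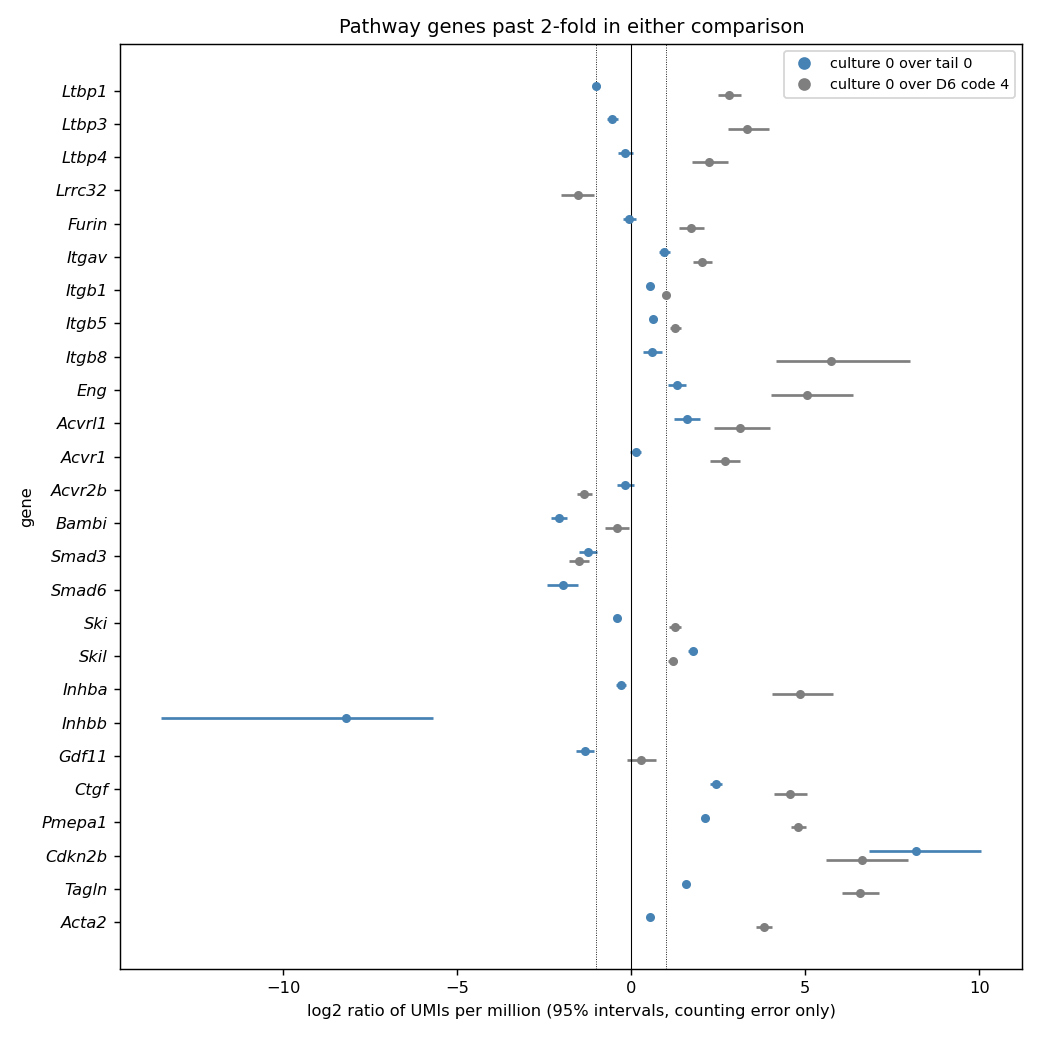
Log2 ratio of CPM with 95% intervals for the pathway genes past 2-fold in culture cluster 0 over tail cluster 0 (blue) or over D6 code 4 (gray), where dotted lines mark 2-fold. *Pmepa1*, *Ctgf*, *Cdkn2b* and *Tagln* lie to the right of the line in both, and *Smad3* to the left in both, although with TMM scaling it is within 2-fold of the tail.

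The response genes did not move as 1 group within the culture. In cluster 2 over cluster 0, 1 was higher and 3 were lower, where 6.48% of all genes differed, with *Ctgf* at 2.01 (1.87 to 2.17) and *Cdkn2b* at 0.0420 (0.0240 to 0.0684). TMM scaling multiplied the ratios of this comparison by 0.860, which left *Ctgf* above 1 but within 2-fold. *Tagln* and *Acta2*, which also mark contractile cells, gave 0.0898 (0.0759 to 0.106) and 0.0503 (0.0389 to 0.0640), and in the tail 0.268 (0.225 to 0.317) and 0.00437 (0.00119 to 0.0112). *Pmepa1* gave 0.881 (0.843 to 0.919) in the culture. The only other pathway gene past 2-fold in this comparison was *Itgb8*, at 0.473 (0.335 to 0.653).

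The genes whose levels were most like each member over the 29 groups were ranked by Pearson's r of log2(CPM + 1) among 14489 genes, as a description without a test. The groups share 3 libraries and their depth. *Tgfb1* was closest to *Gng11* (0.91), *Elk3* (0.86), *Ripk3*, *Fxyd5* and *Plekho2* (0.85 each). *Tgfb2* was closest to *Tmem176b* and *Tspan12* (0.83 each), *Zfp503* (0.80), *Lbh* (0.79) and *Grb10* (0.78). *Tgfb3* was closest to *Col1a2*, *Lum* and *Ddr2* (0.92 each), *Col1a1* (0.91) and *Col6a2* (0.90), of which 0 of 5 remained over groups of at least 100 cells. For the receptors, *Tgfbr1* was closest to *Alg10b* and *Wdfy3* (0.92 each), *Hspa13* (0.91), *Gm26699* and *Alg2* (0.90 each), of which again 0 of 5 remained. *Tgfbr2* was closest to *Tnfrsf1a* (0.92), *Cmtm3*, *Msrb3*, *Itpripl2* and *Timp3* (0.90 each), and *Tgfbr3* to *Kremen1*, *Ticam1* and *Akap13* (0.83 each), *Gm37760* (0.81) and *Slc4a2* (0.80). Between the members themselves, r was highest for *Tgfb1* and *Tgfbr2* at 0.82, followed by *Tgfb3* and *Tgfbr2* at 0.64, and lowest for *Tgfb1* and *Tgfbr1* and for *Tgfb3* and *Tgfbr3*, at 0.18 each.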

How the data were processed

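Cells of 3 libraries made with 10x Genomics v3 reagents for 3′ ends were used. The deposited tables hold raw UMI counts, with 1 row for the cluster code that the authors gave to each cell. For these counts the authors ran cellranger 3.1.0 without multi-mapping reads, filtered cells on mitochondrial share and on the lowest and highest 2%, and clustered in Seurat 3.0. The genome reference of the counts is not given in the sources used here, so that coordinates are given only for RefSeq promoters.

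UMIs were summed per cluster and library with Python 3.11.15, NumPy 2.4.6, SciPy 1.17.1 and pandas 2.3.3. Codes were matched to cluster numbers by the shares of detecting cells in the study's tables, apart from clusters 11, 12 and 13, which were taken by order. TMM factors came from edgeR 4.0.16 in R 4.3.3. Scrublet in Scanpy 1.11.5 called 1.48% of culture, 0.439% of tail and 1.36% of D6 cells as doublets, and these were left out only as an alternative. Figures were drawn with Matplotlib 3.10.9. Groups held at least 40 cells, the fold rule asked for 2-fold, 10 CPM and 30 UMIs, and a ratio against 0 UMIs used a floor of 3 counts over the group. Thinning to 3000 UMIs used the seed 1. On simulated data, the fold rule recovered 198 of 200 genes changed 4-fold for culture over tail in cluster 0, among 9561 genes. The changed genes were drawn from those above the CPM and UMI bounds, with Poisson counts from a shared profile. High recovery was therefore built in. The simulation held no variation between libraries or in cell make-up, so it cannot show how the rule fares under either.

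The members, the gene lists and the rule for named genes were chosen with earlier results of these data known. Named were the 6 members, the 5 genes most like each, and pathway genes past 2-fold in cluster 0 of the culture over the tail or over D6 code 4. Other pathway genes, named for context, were chosen after their values were seen. Of the response genes, 1 is not reported here and was left out of the counts. Alternatives varied the denominator, doublets, shallow cells, weighting of cells, scaling, thresholds, thinning and the correlation.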

Additional observations from a re-analysis of the deposited data

Results flagged for a closer look

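All 3 ligand genes differed between clusters 0 and 2 in opposite directions in the D10 culture and the E14.5 tail, each with intervals on either side of 1. The culture ratio of cluster 2 over cluster 0 divided by the tail ratio was 0.284 for *Tgfb1*, 6.03 for *Tgfb2* and 0.437 for *Tgfb3*. *Tgfb1* also went in opposite directions in cluster 1 over cluster 0, at 0.806 in the culture and 1.54 in the tail, which gives a ratio of ratios of 0.523. With 1 library per condition the difference was not tested, and the intervals of these ratios cover counting error only.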

How the results depend on the processing

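No paired analysis was possible because each condition had 1 library, and for the same reason no library could be left out. Of the culture and tail ratios of cluster 0, TMM factors moved *Tgfb1* to 8.36, *Tgfb2* to 0.340, *Tgfb3* to 1.33, *Tgfbr1* to 1.16 and *Tgfbr2* to 0.790. Relative to the median gene, *Tgfb2* was 0.303, *Tgfb3* 1.18, *Tgfbr1* 1.04 and *Tgfbr2* 0.705, and as a mean over cells *Tgfb2* was 0.308. For cluster 2 over cluster 0 of the culture, TMM factors gave 1.23 for *Tgfb2* and 0.937 for *Tgfbr1*. For cluster 0 of the culture over D6 code 4, they gave 0.742 for *Tgfb2* and 1.18 for *Tgfbr1*, the mean over cells 0.774 and the median gene 0.681 for *Tgfb2*. *Tgfbr1*, whose ratios lay near 1, therefore changed side of 1 with the scaling in all 3 comparisons. TMM moves all ratios of a comparison alike, here by less than 2-fold, so the members past 2-fold had to keep their directions. TMM factors turned *Tgfbr2* in culture over tail cluster 1 to 1.04, and the mean over cells brought *Tgfb2* in culture cluster 2 over D6 code 4 to 1.0. Genes past 2-fold numbered 759, 234 and 921 at a minimum of 50 CPM and 11789, 8789 and 10259 at 1 UMI, in place of 2119, 611 and 2320 in these 3 comparisons, since fewer or more genes were compared. At 1.5-fold, 10 pathway genes in place of 5 passed in cluster 2 over cluster 0 of the culture. Which genes were most like a member changed with the pseudocount, the cluster size and the rank correlation, and at least 100 cells per group kept 0 to 2 of each 5. Ratios on few UMIs had wide intervals, such as 0.442 (0.247 to 0.764) for *Tgfbr3* in culture over tail cluster 2.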
